A study of Mus musculus with 42 samples.

Results

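The genes described here are the 7 neighbors that lie downstream of *Tug1* on mouse chromosome 11: *Rnf185*, *8430429K09Rik*, *Selm*, *Smtn*, *Gm11946*, *Pla2g3* and *Inpp5j*. They were chosen from 26653 genes by their place, with starts at lower coordinates within 0.2 Mb of the *Tug1* start, and with their difference between the genotypes in earlier results in view, so the size and direction of that difference are given below as a description and without a test. Polyadenylated RNA had been sequenced from 22 wild-type and 20 *Tug1*-/- samples: 4 and 3 from testes, 3 and 2 from prostate, and 3 and 3 each from liver, heart, eyes, spleen and cultured embryonic fibroblasts (MEFs). In *Tug1*-/- mice, which carry the *Tug1*tm1.1Vlcg allele without its neomycin gene on a C57BL/6J background, a *lacZ* reporter stands in place of the *Tug1* gene body on both alleles of every cell, while the promoter and first exon remain. The samples were from male mice. By the study's text the tissues were adult, and no more exact age is given in the sources used here. The MEFs were primary cultures at passage 2 from male E14.5 littermates. The deposited values are 1 combined FPKM (sequenced fragments, scaled for transcript length and for the mapped fragments of the library) for each genotype and tissue. They carry no error between replicates, and the depth is unknown.

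*Tug1* is a long noncoding RNA that is widely expressed, and loci of this kind can act through the RNA, through the act of transcription or through DNA elements within them. The neighbors have little in common by function. *Rnf185* encodes a RING ubiquitin ligase of the endoplasmic reticulum membrane that takes part in the degradation of misfolded proteins, and *Selm* encodes selenoprotein M, a small thioredoxin-like selenoprotein of the same compartment. *Smtn* encodes smoothelin, a cytoskeletal protein that binds actin in contractile smooth muscle. *Pla2g3* encodes a secreted phospholipase A2 and *Inpp5j* a phosphatase that removes the 5-phosphate from inositol lipids. *8430429K09Rik* and *Gm11946* are annotated as processed transcripts with no protein.

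On GRCm38 (GENCODE vM21), the *Tug1* start is at position 3649673 of chromosome 11 on the minus strand. The nearest member start was that of *Smtn* (chr11:3517523-3540612, minus strand), 109061 bp away. *Gm11946* (chr11:3530157-3536856, plus strand) lies inside the span of *Smtn* on the other strand, with 714 of its 4346 exonic bases shared with *Smtn* exons. *Selm* (chr11:3514684-3517351, plus strand, listed as *Selenom* in GENCODE vM21) starts 134989 bp away and ends 171 bp from the end of *Smtn*. *Inpp5j* (chr11:3494375-3504821, minus strand) and *Pla2g3* (chr11:3488284-3499350, plus strand) start 144852 and 161389 bp away and share 401 exonic bases at their ends in this annotation. In the loci listed in the deposited table the same genes were 208 bp apart, so the annotation behind the values held a shorter *Pla2g3*. *8430429K09Rik* (chr11:3452365-3479831, plus strand) and *Rnf185* (chr11:3415982-3452363, minus strand) start back to back, 2 bp apart and just inside the limit at 197308 and 197310 bp.

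RefSeq promoter windows on GRCm38.p6, from 250 bases before to 50 after a start, were matched by symbol for 5 of the 7 genes, *Selm* under the name *Selenom*. *Pla2g3* and *Inpp5j* had no entry. The windows of the members at 1 FPKM or more in all tissues are shown because their genes were higher together in most of the tissues. The first of them (chr11:3452187-3452486, plus strand) holds the back-to-back starts of *8430429K09Rik* and *Rnf185*. The window that RefSeq gives for *Rnf185* itself (chr11:3452907-3453206, minus strand) lies at a start 593 bp further upstream than that in GENCODE vM21. The other windows are those of *Selm* (chr11:3514434-3514733, plus strand) and *Smtn* (chr11:3539243-3539542, minus strand). The *Smtn* window lies at a start 1320 bp inside that of GENCODE vM21, from which the distance above was taken. RefSeq has 3 windows for *8430429K09Rik* and 5 for *Gm11946*, of which the most upstream was used. Capitals mark matches on either strand to 4 short motifs, none of which overlapped each other. The GC box was searched as GGGCGG. For the core that ETS factors bind, the letters searched were CCGGAA. The TATA box was searched as TATAAA. The letters of the remaining motif, the CCAAT box, are its name.
8430429K09Rik: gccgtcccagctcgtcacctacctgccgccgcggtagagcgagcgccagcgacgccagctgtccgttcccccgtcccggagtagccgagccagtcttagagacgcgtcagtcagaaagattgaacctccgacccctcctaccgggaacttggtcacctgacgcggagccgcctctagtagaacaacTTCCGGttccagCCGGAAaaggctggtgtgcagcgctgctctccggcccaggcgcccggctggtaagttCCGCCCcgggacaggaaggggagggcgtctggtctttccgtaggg
Rnf185: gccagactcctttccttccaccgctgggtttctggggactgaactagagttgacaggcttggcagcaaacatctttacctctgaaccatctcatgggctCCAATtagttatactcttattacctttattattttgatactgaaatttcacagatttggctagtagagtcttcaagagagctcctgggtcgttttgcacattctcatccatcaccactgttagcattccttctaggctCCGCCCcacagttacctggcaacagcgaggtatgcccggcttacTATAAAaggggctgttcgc
Selm: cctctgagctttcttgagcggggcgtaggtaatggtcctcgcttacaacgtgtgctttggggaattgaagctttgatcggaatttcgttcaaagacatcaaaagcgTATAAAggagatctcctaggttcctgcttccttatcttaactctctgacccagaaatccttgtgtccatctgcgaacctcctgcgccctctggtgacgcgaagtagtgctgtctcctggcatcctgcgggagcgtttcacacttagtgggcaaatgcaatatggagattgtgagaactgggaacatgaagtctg
Smtn: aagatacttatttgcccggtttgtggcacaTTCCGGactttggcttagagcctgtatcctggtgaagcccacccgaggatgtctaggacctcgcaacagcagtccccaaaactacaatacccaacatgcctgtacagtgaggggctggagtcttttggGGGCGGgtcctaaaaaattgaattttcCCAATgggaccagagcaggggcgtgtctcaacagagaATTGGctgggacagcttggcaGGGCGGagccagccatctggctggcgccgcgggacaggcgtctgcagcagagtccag

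These windows were unlike each other. That of *8430429K09Rik* held 30 CpG dinucleotides, against a median of 7 over all 32851 windows, with 1 GC box and 2 ETS cores. The upstream *Rnf185* window held 6 CpGs, with 1 GC box, 1 TATA box and 1 CCAAT box. *Selm* had 13 CpGs and 1 TATA box, and *Smtn* had 11 CpGs, 2 GC boxes, 1 ETS core and 2 CCAAT boxes. The *Gm11946* window, not shown, had 9 CpGs and no match. Of all windows, 35.7% held the GC box, 14.9% the ETS core, 13.6% the TATA box and 37.4% the CCAAT box. A match describes these letters and is not a binding site, and no motif was present in all 5 windows.

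To compare the genotypes, the change was taken as log2 of the *Tug1*-/- over the wild-type FPKM after adding 0.1 to each, and a gene was counted where the mean of both genotypes reached 1 FPKM and the change was more than 1.5-fold. Adding 0.1 understates the change of low genes. Of the 49 values (7 genes in 7 tissues), 45 were higher in *Tug1*-/- and 4 were lower. Of these values, 36 reached 1 FPKM and 28 of those were more than 1.5-fold higher. Over all genes and tissues, 2.21% of the values at 1 FPKM or more were past this limit. The rule used this contrast, so the shares of all genes below are given beside the members' counts and nothing is read from them.

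In heart, 6 of the 6 genes at 1 FPKM were more than 1.5-fold higher, where 0.874% of all genes were. In prostate the count was 5 of 5 (2.4% of all genes), and in testes it was 5 of 7 (1.17% of all genes). The testes count and the total above include *Gm11946*, which reached a mean of 1 FPKM there through its *Tug1*-/- value. It was at 0.208 FPKM in wild-type and 5.47 in *Tug1*-/- testes. Eyes had 4 of 5 (2.64% of all genes) and liver 3 of 4 (2.55% of all genes). MEFs had 3 of 5 (0.975% of all genes) and spleen 2 of 4 (4.91% of all genes). Heart thus had the highest count and spleen the lowest, an order that depends on the setting. With a pseudocount of 1 heart had 4, below testes and prostate with 5 each, and after centring on the median gene testes and heart had 6 each, and spleen, liver and MEFs 3 each. The median change of the 7 genes was 1.02 in heart, 0.87 in eyes, 0.84 in prostate, 0.76 in testes, 0.56 in spleen, 0.51 in MEFs and 0.24 in liver. The median of all genes at 1 FPKM lay between -0.06 and 0.03 in every tissue.

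**Figure D1:**
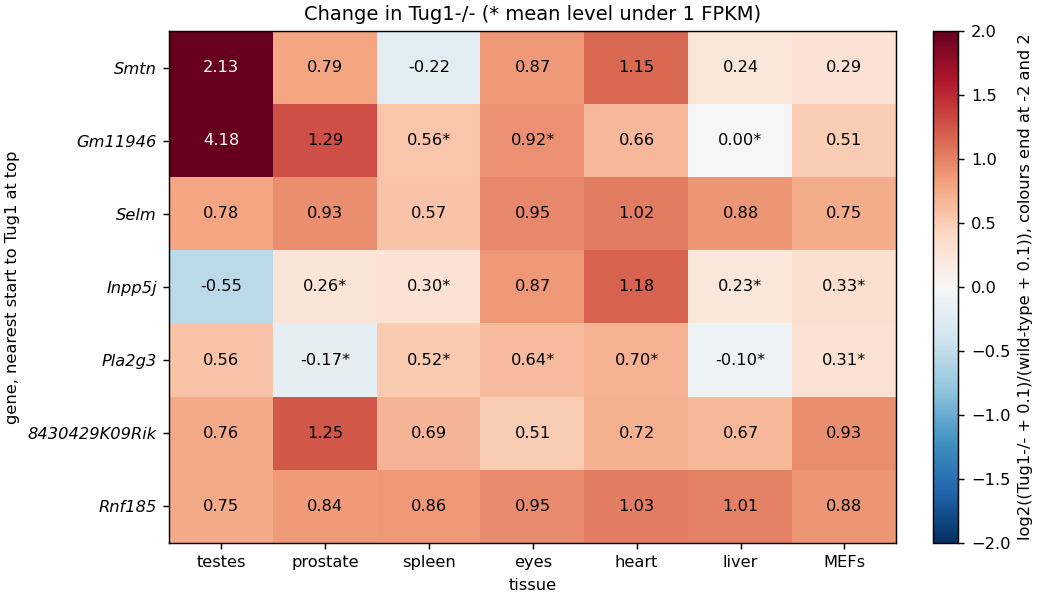
Change of each gene (rows, nearest *Tug1* at the top) in each tissue (columns) as log2((*Tug1*-/- + 0.1)/(wild-type + 0.1)) of the FPKM, with red for higher and blue for lower and an asterisk where the mean of both genotypes was under 1 FPKM. The row of *Rnf185* is even, from 0.75 to 1.03, whereas those of *Smtn* and *Gm11946* run from near 0 or below to 2.13 and 4.18 in testes.

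*Rnf185* (ENSMUSG00000020448.10) was higher in *Tug1*-/- in all 7 tissues. Its wild-type level was 29.1 FPKM in prostate, 20.4 in testes, 18.7 in liver, 13.2 in eyes, 12.0 in MEFs, 9.54 in heart and 8.48 in spleen. In *Tug1*-/- the level was 52.3 FPKM in prostate, 34.4 in testes, 37.9 in liver, 25.7 in eyes, 22.2 in MEFs, 19.6 in heart and 15.5 in spleen. The spread between tissues was narrow for the wild-type level, 3.43 times from the lowest to the highest, and for the change. The change was smallest in testes (0.75) and largest in heart (1.03), a range of 0.27 against a median range of 0.37 over the 8874 genes at 1 FPKM in all 7 tissues. *Rnf185* was past the 1.5-fold limit in all of them, and it was the only 1 of these 8874 genes that was (0.0113%). By the smallest of the 7 changes, the first 3 genes were *Rnf185*, *Selm* (0.57) and *8430429K09Rik* (0.51), and the fourth, *Ctgf*, was at 0.29. The members were chosen with these same changes in view, so their place in this order is a description and nothing is read from it. Outside the members, *Rps4y2* was past the limit in 6 tissues and *Lcn2* and *Pf4* in 5, and these genes are named after their values were seen.

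*8430429K09Rik* (ENSMUSG00000034587.8), the transcript that starts 2 bp from *Rnf185*, was mainly a testis transcript. Its wild-type level was 12.9 FPKM in testes, 3.16 in MEFs, 2.58 in eyes, 1.79 in prostate and in spleen, 1.30 in heart and 1.07 in liver. The *Tug1*-/- level was 21.8 FPKM in testes, 6.11 in MEFs, 3.72 in eyes, 4.39 in prostate, 2.94 in spleen, 2.20 in heart and 1.76 in liver. It was higher in every tissue and past the limit in 6 of 7, all but eyes (0.51). The change was largest in prostate (1.25).

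The level of *8430429K09Rik*, as a percentage of that of *Rnf185* on the FPKM scale, differed more between tissues than between genotypes. It was 63.2% in wild-type and 63.5% in *Tug1*-/- testes, and 26.3% and 27.5% in MEFs. Wild-type spleen had 21.1% and *Tug1*-/- spleen 19.0%, eyes had 19.5% and 14.5%, heart 13.6% and 11.2%, prostate 6.16% and 8.41%, and liver 5.71% and 4.65%. The changes of both genes thus differed by 0.01 in testes and by 0.05 in MEFs. In eyes the change of *8430429K09Rik* was lower than that of *Rnf185* by 0.44, and in prostate it was higher by 0.41. In GENCODE vM21 they share no exonic base. The RefSeq start of *Rnf185*, 593 bp further upstream, lies inside the span of *8430429K09Rik* on the other strand. The part of shared reads in these percentages was not tested.

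**Figure D2:**
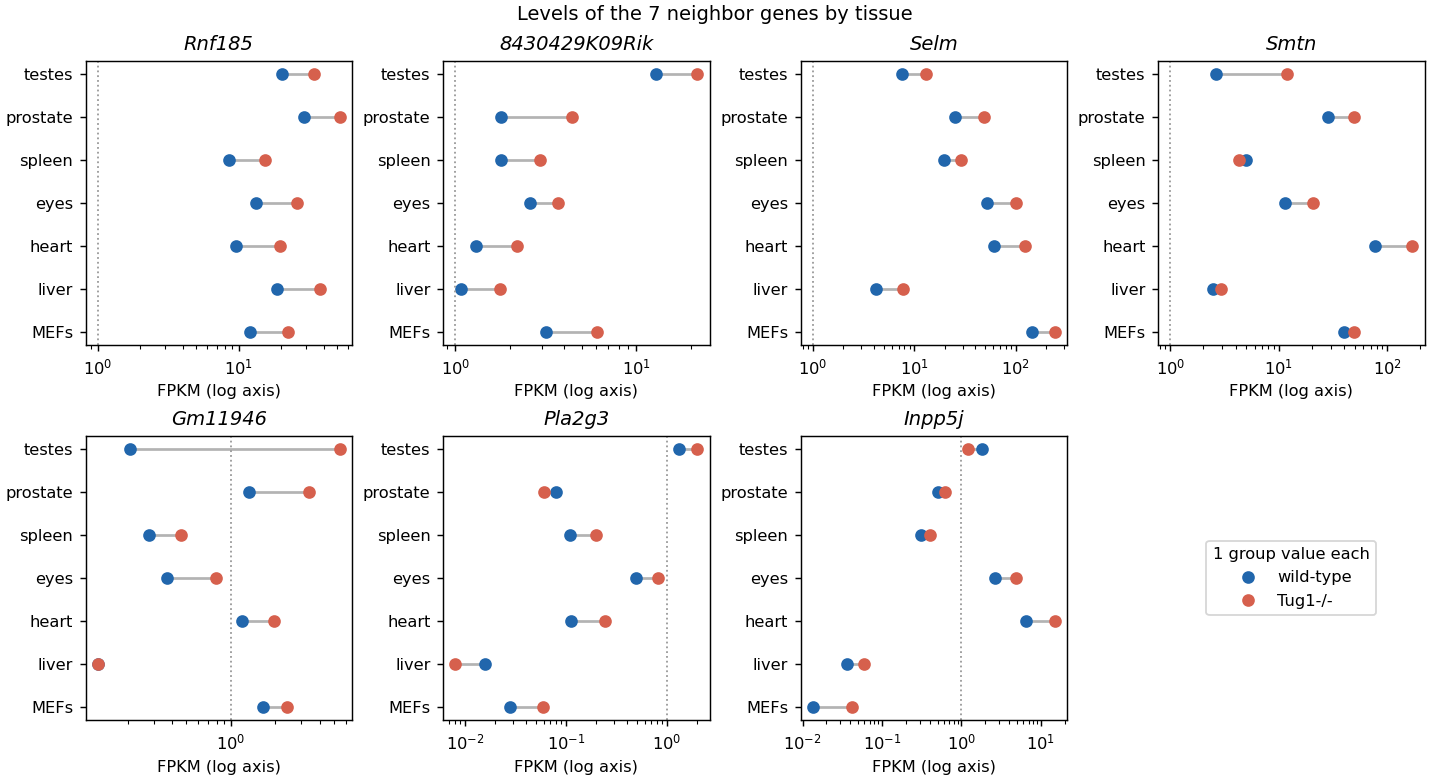
FPKM (log axis) of each gene in wild-type (blue) and *Tug1*-/- (red) for each tissue, 1 combined value per group, with a dotted line at 1 FPKM. For *Rnf185*, *8430429K09Rik* and *Selm* the *Tug1*-/- value lies to the right of the wild-type value in all 7 tissues, and *Pla2g3* reaches 1 FPKM in testes alone.

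*Selm* (ENSMUSG00000075702.9) was on the FPKM scale the most abundant member in wild-type MEFs, eyes and spleen, and varied 34.7 times between tissues. Its wild-type level was 145 FPKM in MEFs, 61.0 in heart, 52.1 in eyes, 25.1 in prostate, 19.4 in spleen, 7.50 in testes and 4.17 in liver. The *Tug1*-/- values were 243 FPKM in MEFs, 124 in heart, 101 in eyes, 48.1 in prostate, 28.8 in spleen, 13.0 in testes and 7.76 in liver. The gene was higher throughout, whether its level was high or low: the change was 0.75 in MEFs, where the level was highest, and 0.88 in liver, where it was lowest. It was past the limit in 6 of 7 tissues, and in spleen (0.57) it stood just below it. In FPKM, the difference in MEFs (98.3) was the largest of any member in any tissue.

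*Smtn* (ENSMUSG00000020439.11) differed between tissues in the size and in the direction of its change. Its wild-type level was 76.5 FPKM in heart, 40.0 in MEFs, 28.2 in prostate, 11.4 in eyes, 5.00 in spleen, 2.64 in testes and 2.47 in liver. The level in *Tug1*-/- was 170 FPKM in heart, 48.9 in MEFs, 48.8 in prostate, 20.8 in eyes, 4.28 in spleen, 11.9 in testes and 2.93 in liver. It was past the limit in testes (2.13), heart (1.15), eyes (0.87) and prostate (0.79). In MEFs (0.29) and liver (0.24) it was higher by less than the limit, and in spleen it was lower (-0.22). In testes *Smtn* went from the second-lowest level of the tissues to about that of wild-type eyes. Its range of change, 2.35, was wider than that of 99.7% of the genes at 1 FPKM in all tissues.

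Smooth muscle markers were read beside *Smtn*. The summed level of *Acta2*, *Actg2*, *Myh11*, *Tagln*, *Cnn1* and *Des* was 349 FPKM in wild-type and 283 in *Tug1*-/- testes, with none of the 6 genes past the limit in either direction. This sum was mostly *Actg2* (310 and 239 FPKM), and the other 5 markers were higher by 0.04 to 0.29. In heart the sum was 706 and 732 FPKM, of which *Des* made up 505 and 574, while the other 5 markers were lower, with changes of -0.22 to -0.61. The sum was 2733 and 2725 FPKM in prostate and 9824 and 8769 in MEFs. It was 132 and 164 FPKM in eyes, 134 and 114 in spleen, and 11.7 and 17.7 in liver. In a bulk sample, more cells of a type and more RNA per cell cannot be told apart. The wider list of 15 other smooth muscle contractile genes had 5 of 88 values (5.68%) past the limit upward and 3 downward. Over all genes, 2.21% of such values were past it upward, and 1162 of 90218 values were past it downward. Of the upward ones in the list, 4 (*Des*, *Tpm1*, *Tpm2* and *Smtnl1*) were in eyes and 1 (*Acta2*) in liver. No gene of this list was past the limit in 3 or more tissues. The highest 2 in wild-type, *Tpm1* and *Acta2*, changed by -0.16 to 0.72 and by -0.25 to 0.82.

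*Gm11946* (ENSMUSG00000087291.1), the transcript inside *Smtn*, was scarce in wild-type and showed the largest change of any member. Its wild-type level was 1.65 FPKM in MEFs, 1.32 in prostate, 1.19 in heart, 0.369 in eyes, 0.279 in spleen, 0.208 in testes and 0.125 in liver. In *Tug1*-/- it was 2.39 FPKM in MEFs, 3.35 in prostate, 1.95 in heart, 0.786 in eyes, 0.458 in spleen, 5.47 in testes and 0.126 in liver. Testes thus went from second lowest to highest, a change of 4.18. The wild-type level there was close to the added 0.1, so the size depends on that setting. It was 2.42 with a pseudocount of 1 and 4.65 with 0.01. The change was 1.29 in prostate and 0.66 in heart, which were also past the limit, and 0.51 in MEFs. Eyes, spleen and liver stayed under 1 FPKM.

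Since both genes overlap on opposite strands and the library kit named in the methods does not keep the strand in its standard protocol, reads from shared exons could have been counted for either. *Gm11946* was 7.87% of *Smtn* on the FPKM scale in wild-type testes and 45.8% in *Tug1*-/- testes. In the other tissues the percentage was between 1.56 and 5.58 in wild-type and between 1.14 and 10.7 in *Tug1*-/-. In heart, where *Smtn* was highest and gained 93.8 FPKM, *Gm11946* gained 0.754 FPKM. In testes *Smtn* gained 9.28 FPKM and *Gm11946* gained 5.26. The levels were thus not in 1 ratio across tissues, and the part of shared reads in the *Gm11946* values was not tested.

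**Figure D3:**
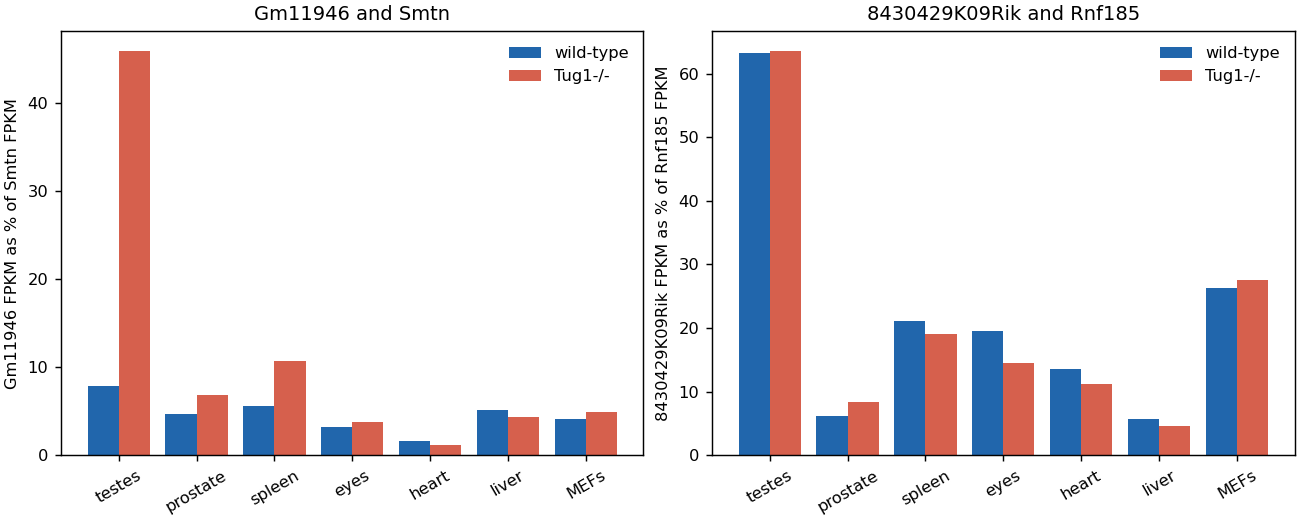
Level of *Gm11946* as a percentage of *Smtn* (left) and of *8430429K09Rik* as a percentage of *Rnf185* (right), from the FPKM of wild-type (blue) and *Tug1*-/- (red) groups of each tissue, 1 combined value per bar. *Tug1*-/- testes stand apart on the left at 45.8%, whereas on the right both testes bars are at about the same height.

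*Inpp5j* (ENSMUSG00000034570.6) was expressed mainly in heart and eyes. In wild-type its level was 6.56 FPKM in heart, 2.63 in eyes, 1.8 in testes, 0.505 in prostate, 0.309 in spleen, 0.0362 in liver and 0.0135 in MEFs. Its *Tug1*-/- level was 15.0 FPKM in heart, 4.88 in eyes, 1.20 in testes, 0.622 in prostate, 0.402 in spleen, 0.0599 in liver and 0.0422 in MEFs. It was past the limit in heart (1.18) and eyes (0.87). In testes, the other tissue at 1 FPKM or more, it was lower (-0.55), so that the sign there was opposite to that of *Smtn*, *Gm11946*, *Selm*, *Rnf185* and *8430429K09Rik* in the same RNA. Liver and MEFs were near 0 in both genotypes.

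*Pla2g3* (ENSMUSG00000034579.11), which ends against *Inpp5j*, reached 1 FPKM in testes alone. Its wild-type level was 1.33 FPKM in testes, 0.493 in eyes, 0.112 in heart, 0.109 in spleen, 0.0806 in prostate, 0.0282 in MEFs and 0.0157 in liver. In *Tug1*-/- it was 2.01 FPKM in testes, 0.824 in eyes, 0.246 in heart, 0.2 in spleen, 0.0601 in prostate, 0.0588 in MEFs and 0.00803 in liver. The change in testes, 0.56, stood just below the limit because of the added 0.1, since the plain ratio was 1.51. It was therefore past the limit in 0 of 1 tissues, but testes passed with a pseudocount of 0.01, with values scaled to the same sum in every group and after centring. In testes the changes of *Pla2g3* (0.56) and *Inpp5j* (-0.55) were opposite, while in heart (0.70 and 1.18) and eyes (0.64 and 0.87) both were higher.

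The limit of 0.2 Mb fell between *Rnf185*, at 197310 bp, and *Limk2*, a LIM kinase gene, at 240484 bp. *Limk2* had a wild-type level of 4.46 to 46.9 FPKM and changes from -0.31 in MEFs to 0.10 in heart. The next genes outward, *Gm11948* and *Gm12592*, changed by -0.65 to 0.09 and by -0.24 to 0.10, at levels of at most 1.38 and 1.58 FPKM. The 12 genes that start beyond 0.2 Mb and within 1 Mb at lower coordinates lie at most 523769 bp away. None of them was past the limit upward in any tissue, where 2.21% of the values of all genes were. Some of the 12 reached 1 FPKM in no tissue and could not be counted, so nothing is read from this. Inside the limit, 9 genes of the table have their start on this side. Other than the 7 members they are *Gm11947* and *Morc2a*. *Gm11947*, a transcript inside *Smtn*, had a mean of both genotypes under 1 FPKM in every tissue. It was highest in *Tug1*-/- prostate (1.0 FPKM, from 0.185 in wild-type). *Morc2a* (chr11:3649191-3690477, plus strand) starts 482 bp from the *Tug1* start. In GENCODE vM21 its start lies inside the *Tug1* span, and its body crosses the *Tug1* start toward higher coordinates. The study's text instead places the *Morc2a* start upstream of the first *Tug1* start.

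**Figure D4:**
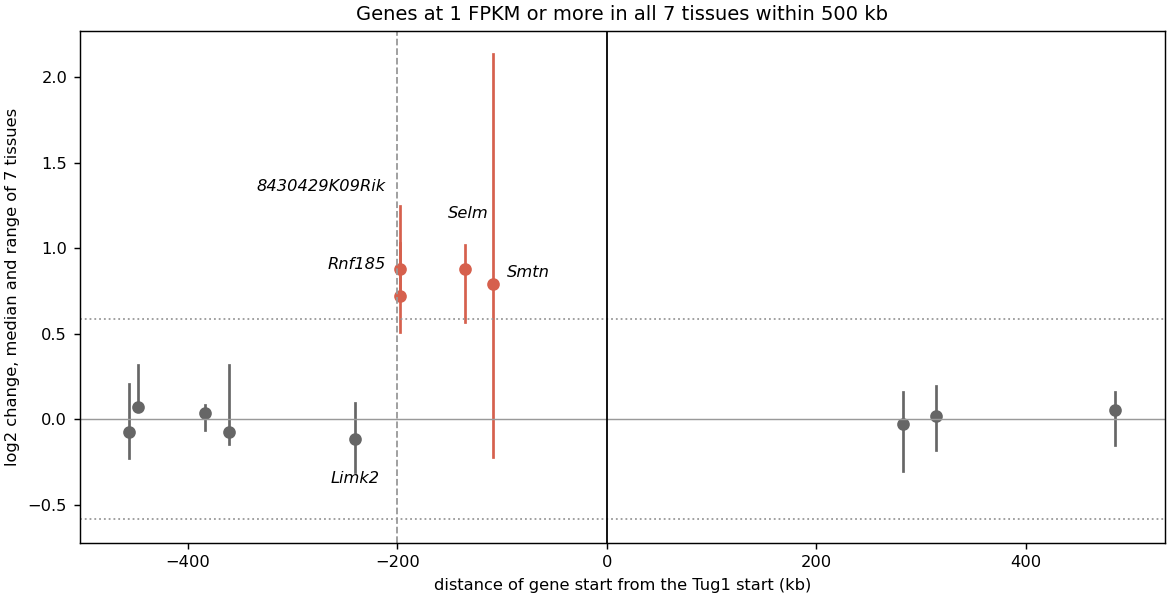
Change against the distance of the gene start from the *Tug1* start (kb, lower coordinates to the left), with the median over tissues as a point and the range as a line. Genes within 0.5 Mb at 1 FPKM or more in all 7 tissues are drawn, except *Tug1* and *Morc2a*. *Morc2a*, whose start is the nearest on the lower side, was left out and had a median of -0.57, with a lowest change of -3.05. Members are red, the dotted lines mark 1.5-fold and the dashed line 0.2 Mb. The 4 red genes have medians of 0.72 to 0.88, and *Limk2* to their left has a median of -0.12.

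The targeted locus was read in the same way. *Tug1* was 11.2 to 27.7 FPKM in wild-type and 0.00753 to 0.402 FPKM in *Tug1*-/- tissues, and *lacZ* was at most 0.00894 FPKM in wild-type. In *Tug1*-/- the *lacZ* level ran from 0.355 FPKM in liver, 0.434 in spleen and 0.734 in prostate to 54.3 FPKM in testes. *Morc2a* was lower in all 7 tissues and past the limit downward in liver (-3.05), prostate (-2.94) and spleen (-1.42). *Rnf185* had changes of 1.01, 0.84 and 0.86 in these 3 tissues and of 0.75 to 1.03 in the other 4, where *lacZ* was 5.98 to 54.3 FPKM and *Morc2a* changed by -0.57 to -0.31. The part of *lacZ* and *Morc2a* in the *Rnf185* values was not tested.

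Ordered by the wild-type level of *Tug1*, the tissues fell in nearly the reverse order of the change of *Rnf185*. *Tug1* was lowest in heart (11.2 FPKM) and liver (12.7), where *Rnf185* changed by 1.03 and 1.01. It was 18.4 FPKM in eyes, 19.2 in prostate, 20.9 in MEFs and 22.7 in spleen, with *Rnf185* changes of 0.95, 0.84, 0.88 and 0.86. It was highest in testes (27.7 FPKM), where *Rnf185* changed least (0.75). Over the 7 tissues Pearson's r of the change with log2 of the *Tug1* level was -0.943 and Spearman's rho -0.893. Without heart and liver, the 2 tissues farthest from the median on the log2 scale of *Tug1*, r was -0.863 over 5 tissues. Those 5 still held testes, which had the highest *Tug1* level and the smallest change of *Rnf185*. The orders above are those of the FPKM scale. After each group was scaled to 1 common sum, r was -0.848. On that scale the change of *Rnf185* was smallest in spleen (0.83), with testes at 0.85, and largest in liver (1.17). For the other members at 1 FPKM in all tissues, r was -0.648 for *Selm*, 0.182 for *8430429K09Rik* and 0.203 for *Smtn*. This relation was looked at after the values were seen, the wild-type levels of both genes come from the same libraries, and it is given as a description.

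**Figure D5:**
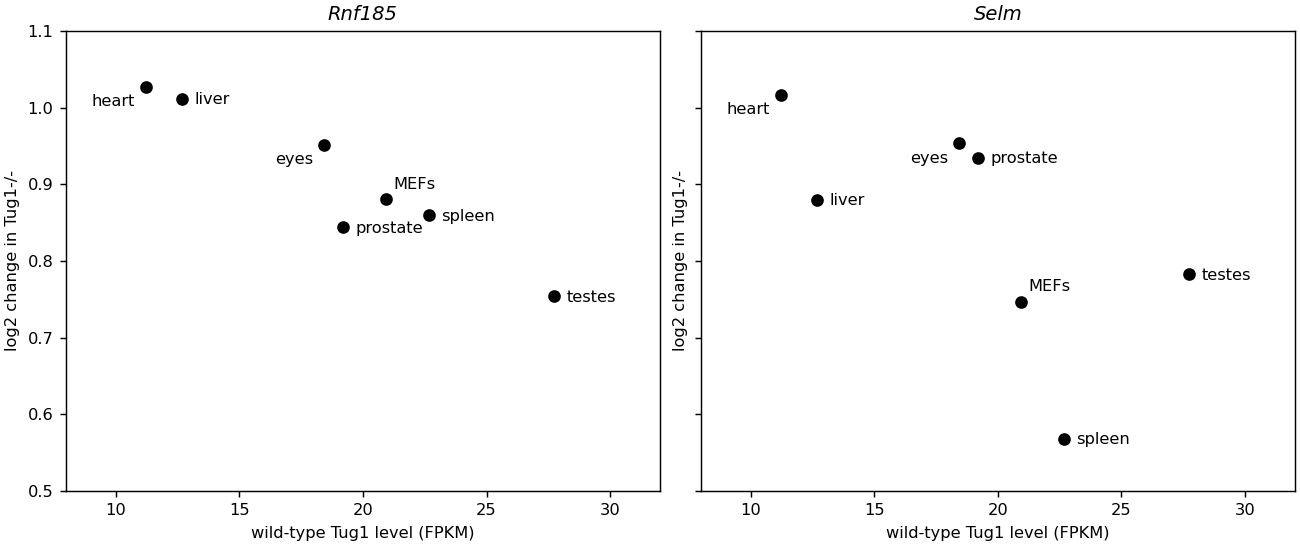
Change of *Rnf185* (left) and *Selm* (right) as log2((*Tug1*-/- + 0.1)/(wild-type + 0.1)) against the wild-type *Tug1* level in FPKM, with 1 point per tissue. The *Rnf185* points fall from 1.03 in heart to 0.75 in testes, and the *Selm* points are more scattered, with spleen lowest at 0.57.

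The genes most like each protein-coding member in their wild-type pattern were taken by Pearson's r of log2(FPKM + 0.1) over the 7 tissues, among 16771 genes with a mean of 1 FPKM. For *Rnf185*, whose level varied least, they were *Sh3yl1* (r of 0.970), *Ptplb* (0.959) and *Ergic3* (0.959). For *Selm* they were *Aebp1* (0.991), *Arhgef17* (0.990) and *Crispld2* (0.985), all highest in MEFs. *Smtn* was most like *Phldb1* (0.992), *Nenf* (0.985) and *Smarcd3* (0.984), all highest in heart. For *Pla2g3* they were *Slc8a2* (0.995), *AI836003* (0.994) and *Ly6g6c* (0.991), highest in testes, and for *Inpp5j* they were *Kbtbd3* (0.997), *Pdzd2* (0.983) and *2310050B05Rik* (0.980), highest in heart. With only 7 tissues many genes reach such values.

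Genes that work with the members, or belong to their families, were read beside them. Over all genes and tissues, 2.21% of the values at 1 FPKM or more were past the limit upward, and nothing is read from the counts of the lists. Of 18 other genes of ER-associated degradation, 2 of 123 values at 1 FPKM (1.63%) were past the limit upward and none downward. These were *Syvn1*, the ligase that works with *Sel1l*, in prostate, and *Derl3*, a derlin, in spleen. *Vcp*, the segregase that pulls proteins from the membrane, changed by -0.02 to 0.15, *Ube2j1*, a ubiquitin-conjugating enzyme, by -0.10 to 0.17, and *Rnf5*, the closest paralog of *Rnf185*, by -0.27 to -0.03. Of 6 other selenoproteins of the endoplasmic reticulum, 1 of 36 values (2.78%) was past the limit upward, that of *Dio2* in eyes. The most abundant, *Sep15* and *Selk*, changed by -0.10 to 0.07 and by -0.19 to 0.13.

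Of 10 other secreted phospholipases A2, 1 of 19 values (5.26%) was past the limit upward. It was that of *Pla2g1b*, the pancreatic enzyme, in spleen, and the most abundant genes, *Pla2g12a* and *Pla2g5*, changed by -0.12 to 0.52 and by -1.12 to 0.53. Of 10 other inositol polyphosphate 5-phosphatases, 1 of 70 values (1.43%) was past it, that of *Inpp5d* in prostate. *Inpp5a* changed by -0.10 to 0.16 and *Inpp5k* by -0.20 to -0.02. No gene of these 4 lists was past the limit in 3 or more tissues.

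Of 22 markers of the labelled tissues other than spleen, 21 reached 1 FPKM in their own tissue in both genotypes, and *Alb* was listed at 0 in liver. In spleen the lymphocyte markers *Cd79a* and *Cd3e* were at 420 and 23.8 FPKM in wild-type and at 331 and 25.3 in *Tug1*-/-. Markers of other tissues moved in some comparisons. In spleen the pancreas markers *Ctrb1* and *Cela1* summed to 16.6 FPKM in wild-type and 1108 in *Tug1*-/-. In eyes the skeletal muscle markers *Acta1*, *Ckm* and *Myh4* summed to 640.3 and 1203 FPKM, with all 3 past the limit. The fat markers *Adipoq* and *Plin1* summed to 5.53 and 20.6 FPKM in prostate, 10.8 and 32.3 in eyes and 30.8 and 13.5 in heart. In heart the lymphocyte marker *Cd79a* was at 9.51 and 4.50 FPKM, *Cd3e* at 0.683 and 0.655, and *Myh4* at 2.03 and 0.00442. In spleen the liver markers summed to 6.35 and 0.0835 FPKM. Fibroblast markers summed to 33.5 and 40.5 FPKM in testes, and in MEFs to 3604 and 3201. The part of these in the members' values was not tested. Without spleen, 26 of 32 member values at 1 FPKM were past the limit, and without eyes 24 of 31, where *Inpp5j* had 1 tissue past it in place of 2.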

How the data were processed

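Polyadenylated RNA of the 42 samples had been made into libraries with the TruSeq RNA Sample Preparation Kit v2. The submitters' processing notes name CASAVA 1.8.2, TopHat2, Cuffdiff and the mm10 genome. The authors' deposited table holds 1 FPKM value per gene, genotype and tissue, with the replicates combined, and its header does not name the unit, which is that of the Cuffdiff layout. The authors' methods describe another route, through DESeq2, for their own calls. The table's columns of the authors' fold changes, test statistics, p-values, q-values and significance calls were not used. A value listed at exactly 0 may be an estimate that was not made. A further comparison of the table, of adult brain, has no samples in the labels used here.

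From the deposited FPKM, changes were computed with Python 3.11.15, pandas 2.3.3 and numpy 2.4.6 as log2((*Tug1*-/- + 0.1)/(wild-type + 0.1)). A gene was counted at a mean of at least 1 FPKM and a change of more than 1.5-fold. With 1 value per group no p-value, error or interval could be computed. The steps were tested on simulated data. Other pseudocounts (1 and 0.01), floors (none and 0.1 FPKM), a 2-fold limit, values scaled to the same sum in every group (as for TPM) and changes centred on the median gene were tried as alternatives. Gene starts and exons are those of GENCODE vM21.

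The members and the gene lists were chosen with earlier results of these data known. The genes named are the members, *Tug1*, *lacZ* and *Morc2a* as checks, the other genes within 0.2 Mb at lower coordinates with the next 3 beyond, the 3 genes most like each protein-coding member, genes past the limit in every tissue, and from each list the genes past it in at least 3 tissues or otherwise the 2 with the highest wild-type level. Markers of the labelled and other tissues are named as fixed lists, of which 1 marker is not reported here. Beyond this rule, *Rps4y2*, *Lcn2*, *Pf4*, *Ctgf*, *Rnf5* and the single list genes past the limit in 1 tissue or more were named after their values were seen.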

Additional observations from a re-analysis of the deposited data

Results flagged for a closer look

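*Inpp5j* was lower in *Tug1*-/- testes (a log2 change of -0.545, from 1.8 to 1.2 FPKM) and more than 1.5-fold higher in heart and eyes. *Smtn* was lower in *Tug1*-/- spleen (-0.22, from 5.00 to 4.28 FPKM) and more than 1.5-fold higher in testes, prostate, eyes and heart. Both were marked because the direction in 1 tissue was opposite to that in others. The differences between tissues were not tested, since each group has 1 combined value.

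The deposited table also holds a comparison of adult brain, for which the labels used here give no samples, and in it 4 of the 6 members at 1 FPKM or more were more than 1.5-fold higher in the knockout value, where 0.274% of all genes were.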

How the results depend on the processing

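The direction of all 49 changes was the same with a pseudocount of 1 or 0.01, with values scaled to the same sum in every group and after centring on the median gene. Counts of members, and the shares of all genes past the limit, moved as follows. The shares over the 7 tissues, from 0.874% to 4.91% as reported, were 0.221% to 1.67% with a 2-fold limit, 0.528% to 3.94% with a pseudocount of 1, 0.682% to 4.86% with values scaled to the same sum, 1.42% to 5.26% with a floor of 0.1 FPKM and 1.14% to 3.58% with no floor. The 28 member values past the limit became 9 with a 2-fold limit. With that limit the members past it were 4 in heart, 2 in testes, 2 in prostate, 0 in spleen, 0 in eyes, 1 in liver and 0 in MEFs. The tissues past it were 2 for *Rnf185*, 1 for *8430429K09Rik*, 1 for *Selm*, 2 for *Smtn*, 2 for *Gm11946*, 0 for *Pla2g3* and 1 for *Inpp5j*. With a pseudocount of 1, heart had 4 members past the limit in place of 6, spleen had 1 member past the limit and *8430429K09Rik* 3 tissues. *Pla2g3* had 1 tissue past it with a pseudocount of 0.01 or after centring, and 2 with values scaled to the same sum, with no floor or with a floor of 0.1 FPKM. Leaving out eyes, an alternative chosen after seeing the data, left 1 tissue for *Inpp5j*. The summed FPKM of *Tug1*-/- over wild-type differed by -0.16 (log2) in liver and by -0.10 in testes. With values scaled to the same sum the members' changes there were higher, by amounts that differed because 0.1 was added on the new scale. In liver *Rnf185* went from 1.01 to 1.17 and *Pla2g3* from -0.10 to -0.08, and in testes *Gm11946* went from 4.18 to 4.40. On that scale the wild-type order of tissues differed in 6 places for *Rnf185*, in 4 for *8430429K09Rik* and in 2 each for *Selm* and *Pla2g3*, and none of the 3 genes most like *Rnf185* and 1 of the 3 most like *Pla2g3* remained. No paired analysis was possible because the table holds 1 value per genotype and tissue, and for the same reason no replicate could be left out. Depth is unknown, so no smallest measurable value can be given for the members near 0.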

Other observations

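In the adult brain comparison, *Selm* was listed at 113 FPKM in wild-type and 248 in knockout (a change of 1.13), *Rnf185* at 11.2 and 22.9 (1.03), *8430429K09Rik* at 3.77 and 7.48 (0.97) and *Inpp5j* at 21.7 and 41.8 (0.94). *Inpp5j* had a higher level there than in any of the 7 labelled tissues. *Smtn* was listed at 2.05 and 3.03 FPKM (0.54) and *Pla2g3* at 0.989 and 1.43 (0.49), both higher by less than 1.5-fold on this scale, and *Gm11946* was at 0.0111 and 0.127 FPKM. *Tug1* was at 20.1 and 0.0591 FPKM, and *Limk2*, the first gene beyond the members, at 32.6 FPKM in both. By the study's text the brain data are an existing set that was analysed again. Its samples are not in the labels used here, so these values entered no count above.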
